A study of Rattus norvegicus with 18 samples.

Results

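The potassium channel genes are the members of the Kcn gene family on the array, taken as every probe set annotated with a single gene symbol that begins with Kcn. The rule found 108 probe sets for 73 genes, of 10411 genes named on the array, and the brightest probe set on average stood for each gene. Expression was measured in rat oculomotor nucleus, the midbrain group of motor neurons that moves the eye, and in spinal cord. Per the labels, both tissues were sampled at 6, 18 and 30 months of age, with 3 arrays for each tissue and age and 18 arrays in all. The labels of some samples name the F344BN rat, no treatment or allele is named, and each RNA sample pooled tissue from 4 animals. The labels do not say that the pools are separate litters or batches, so the p-values measure the spread between these pooled samples, which may be partly technical.

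Potassium channels let potassium ions leave or enter the cell along their gradient and thereby set the resting potential, end the action potential and shape the firing pattern of neurons. Voltage-gated channels (the Kcna to Kcnd, Kcnq and Kcnh genes) open on depolarisation, inward rectifiers (Kcnj) and two-pore-domain channels (Kcnk) carry current near the resting potential, and auxiliary subunits (Kcnab, Kcnip, Kcne, Kcnmb) change the gating or the transport of the pore proteins. In motor neurons the Kv3 channels are known for allowing brief action potentials at high rates, and in astrocytes Kcnj10 and Kcnj16 form the channels that take up potassium released by neurons.

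Levels are given as the scaled array signal, a linear brightness in arbitrary units that compares samples for 1 probe set but not 1 gene with another. Of the 73 genes, 32 had a mean log2 signal above the 40th percentile of all values (a signal of about 176) and were tested. None of the 32 was at the floor set for the signals, 66.4 (their 20th percentile, not a detection limit), on any array. Of the 41 genes that were not tested, 7 were at or under the floor on all 18 arrays (Kcnb2, Kcne1, Kcnh6, Kcnh8, Kcnj1, Kcnk5 and Kcns2), 20 on some arrays and 14 on none. By role, the tested genes were 6 of 9 Kv1 channels and beta subunits, 4 of 11 Kv2, Kv3 and silent subunits, 6 of 7 Kv4 channels and their KChIP subunits, 3 of 13 Kv7, EAG-family and Kcne genes, 2 of 7 calcium- and sodium-activated channel genes, 7 of 15 inward rectifiers and 4 of 11 two-pore-domain channels. The coefficient of variation within a group of 3 arrays, taken as the median over the 6 groups, ran from 4.52% for Kcnc2 through a median of 12.4% to 19.5% for Kcnj10.

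Promoters in the RefSeq table (build GRCr8) were found for 50 of the 73 genes. They are the 300 bases from 250 before to 50 after the gene's start. Shown here are 4 of the genes whose arrays separated the tissues completely, Kcnd3 and Kcnc2 with the higher signal in oculomotor nucleus and Kcnj14 and Kcns3 with the higher signal in cord, at chr2:195626066-195626365 (plus strand), chr7:49587364-49587663 (plus), chr1:105437209-105437508 (minus) and chr6:39584056-39584355 (minus). Capitals mark a GC box (GGGCGG or its reverse complement CCGCCC) or a CCAAT box, searched on both strands.
Kcnd3: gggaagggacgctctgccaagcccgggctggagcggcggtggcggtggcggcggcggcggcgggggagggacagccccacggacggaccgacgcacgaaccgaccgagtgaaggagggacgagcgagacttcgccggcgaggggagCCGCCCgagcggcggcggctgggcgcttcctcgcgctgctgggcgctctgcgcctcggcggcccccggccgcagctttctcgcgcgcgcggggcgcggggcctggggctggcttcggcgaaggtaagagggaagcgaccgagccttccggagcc
Kcnc2: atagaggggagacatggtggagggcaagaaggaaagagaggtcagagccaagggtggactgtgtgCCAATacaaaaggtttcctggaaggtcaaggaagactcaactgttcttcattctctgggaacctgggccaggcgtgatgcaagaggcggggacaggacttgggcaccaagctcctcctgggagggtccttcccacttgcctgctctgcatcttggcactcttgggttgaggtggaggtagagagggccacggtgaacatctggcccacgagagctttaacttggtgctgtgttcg
Kcnj14: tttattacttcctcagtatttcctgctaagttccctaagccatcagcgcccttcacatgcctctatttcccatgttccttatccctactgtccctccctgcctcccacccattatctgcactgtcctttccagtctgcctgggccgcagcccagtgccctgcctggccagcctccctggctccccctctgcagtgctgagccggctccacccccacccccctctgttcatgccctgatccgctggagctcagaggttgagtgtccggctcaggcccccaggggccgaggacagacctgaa
Kcns3: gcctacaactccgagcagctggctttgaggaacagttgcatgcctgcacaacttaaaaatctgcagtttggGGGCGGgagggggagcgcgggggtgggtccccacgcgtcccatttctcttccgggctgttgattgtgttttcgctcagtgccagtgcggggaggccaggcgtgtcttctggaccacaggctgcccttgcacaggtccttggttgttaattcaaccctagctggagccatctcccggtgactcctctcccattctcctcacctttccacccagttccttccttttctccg
The Kcnd3 promoter held 1 GC box, 77.7% G and C and 48 CpG dinucleotides, whereas that of Kcnc2 held 1 CCAAT box, 56% G and C and 5 CpG. The Kcns3 promoter held 1 GC box, and none of the motifs searched was found in that of Kcnj14. The promoters of Kcnd3 and Kcnc2 thus differed in motif and in base composition. Those of Kcns3 (58.3% G and C, 12 CpG) and Kcnj14 (60.7%, 6 CpG) differed in motif but were close in G and C content. Over the 50 members found, the median G and C content was 62% and the median CpG number 16.5, against 52.3% and 7 over all 27457 promoters in the table. A GC box was present in 28 members (56%, against 34.9% of all promoters) and a CCAAT box in 13 (26%, against 37.7%). The TATA motif TATAAA was present in 2 members (4%, against 14.3%), CACGTG in 2 (4%, against 6.65%) and the cyclic AMP response element TGACGTCA in none (against 1.91%). GC box matches and base composition are related, and a match is only a run of letters.

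The first comparison asked how the channels differ between the tissues, over all ages (9 arrays against 9). Of the 32 genes tested, 19 (59.4%) passed an adjusted p of 0.05, 9 with the higher signal in oculomotor nucleus and 10 with the higher signal in cord. Over all 9482 probe sets tested 47.2% passed, 23.6% in each direction, so a tissue difference was common on the array as a whole. The median size of the difference was 0.32 log2 for the 32 genes and 0.19 for all probe sets. For 9 genes the 9 arrays of 1 tissue did not overlap the 9 of the other, against 14.2% of all probe sets. They were Kcnd3, Kcnip4, Kcnc2 and Kcnc4, all higher in oculomotor nucleus, and Kcnd1, Kcna1, Kcnab2, Kcnj14 and Kcns3, all higher in cord. In whole tissue, fewer cells of a type and less RNA per cell cannot be told apart.

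**Figure D1:**
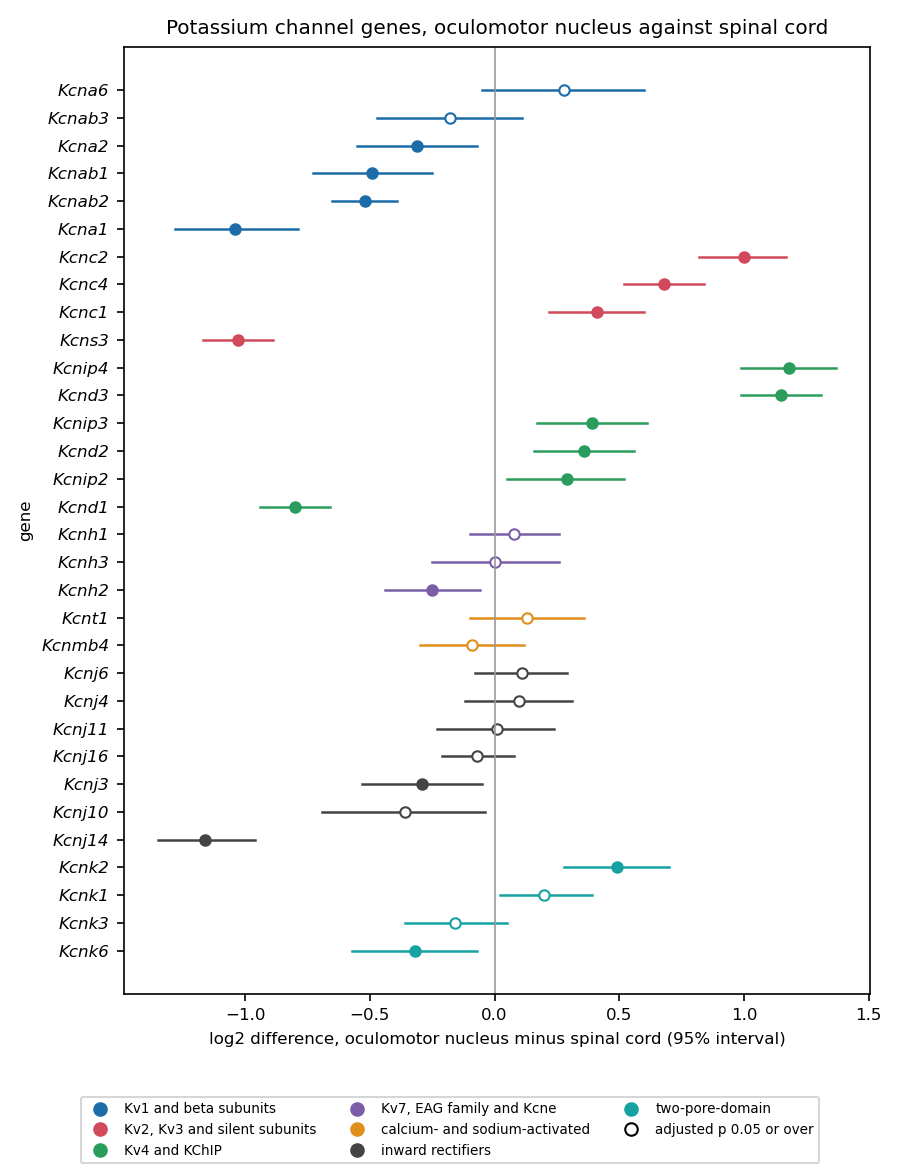
Difference between the tissues for the 32 genes tested, as the log2 signal of oculomotor nucleus minus that of spinal cord over all ages (9 arrays each). Points are estimates from the linear model, bars are 95% intervals, colours are roles, and open points did not pass the adjusted p of 0.05. The Kv1 genes that passed lie on the cord side, while 5 of 6 Kv4 and KChIP genes lie on the oculomotor side.

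The Kv4 channels, which carry the fast transient A-type current of dendrites and cell bodies, and the calcium-binding KChIP proteins that traffic and gate them included both of the largest differences toward the oculomotor nucleus. All 6 genes tested passed, 5 higher in oculomotor nucleus and 1 lower. Kcnip4, which encodes KChIP4, had signals from 318 through a median of 566 to 635 in oculomotor nucleus and from 198 through 223 to 277 in cord. The log2 difference was 1.18 (SE 0.09, adjusted p = 2.83e-09), a 2.27-fold higher signal. Kcnd3, the pore subunit Kv4.3, ran from 479 through 508 to 613 in oculomotor nucleus and from 194 through 231 to 275 in cord. Its log2 difference was 1.15 (SE 0.08, adjusted p = 4.52e-10), and a second Kcnd3 probe set, which was too dim for the test, differed by 0.56 in the same direction. In neither gene did any oculomotor array fall to the level of the highest cord array.

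The third Kv4 pore subunit, Kcnd1 (Kv4.1), differed the other way. It ran from 248 through 259 to 328 in oculomotor nucleus and from 422 through 476 to 504 in cord, a log2 difference of -0.80 (SE 0.07, adjusted p = 1.5e-08). The Kv4 pore genes thus lay on both sides within a single subfamily, with Kcnd3 and Kcnd1 at opposite ends and Kcnd2 (Kv4.2) between them. Kcnd2 was higher in oculomotor nucleus by 0.36 (SE 0.09, adjusted p = 0.00409) and by 0.52 on its other tested probe set (adjusted p = 3.63e-05). Kcnip3, also known as the calcium-dependent repressor DREAM, was higher by 0.39 (adjusted p = 0.00508) and Kcnip2 by 0.29 (adjusted p = 0.0456), with overlapping arrays. Kcnip2 passed in 13 of 31 fits and Kcnip3 in 32 of 33, counting the alternatives of the closing section.

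The Kv3 genes tested, Kcnc1, Kcnc2 and Kcnc4, were all higher in oculomotor nucleus. Kcnc2 (Kv3.2) ran from 1310 through 1439 to 1537 in oculomotor nucleus and from 532 through 742 to 879 in cord, a log2 difference of 1.00 (SE 0.08, adjusted p = 9.98e-09). The gene has 6 probe sets. The other 2 that were tested differed by 0.86 (adjusted p = 0.000126) and 1.12 (adjusted p = 8.5e-07), a further pair under the filter by 1.00 and 0.98, and the last was at the floor on all arrays. Kcnc4 (Kv3.4, which inactivates rapidly) ran from 904 through 1142 to 1313 in oculomotor nucleus and from 610 through 700 to 816 in cord, a log2 difference of 0.68 (SE 0.08, adjusted p = 7.03e-07). Kcnc1 (Kv3.1) overlapped between the tissues, from 1505 through 1743 to 2297 in oculomotor nucleus and from 1148 through 1396 to 1669 in cord, and was higher by 0.41 (SE 0.09, adjusted p = 0.00101).

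Kcns3 encodes Kv9.3, a silent subunit that forms no channel alone and modifies Kv2 channels. It ran from 224 through 255 to 280 in oculomotor nucleus and from 466 through 521 to 585 in cord, a log2 difference of -1.03 (SE 0.07, adjusted p = 2.51e-10), the smallest adjusted p of the 32 genes. A wide gap separated the tissues at every age. Among the Kv2 pore genes the array annotation gave Kcnb2, which was at the floor on all arrays.

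The Kv1 channels and their beta subunits are known from axons, where they cluster beside the nodes of Ranvier. Of 6 tested, 4 were lower in oculomotor nucleus, none was higher and 2 did not pass. Kcna1 (Kv1.1) ran from 863 through 1075 to 1367 in oculomotor nucleus and from 1404 through 2383 to 2579 in cord, a log2 difference of -1.04 (SE 0.12, adjusted p = 5.06e-07). The ranges nearly touched, because the lowest cord array, replicate 3 at 30 months, read 1404. Kcnab2, the beta subunit Kv beta 2, ran from 996 through 1144 to 1336 in oculomotor nucleus and from 1451 through 1607 to 2067 in cord, a log2 difference of -0.52 (SE 0.06, adjusted p = 1.14e-06). Its dimmer probe set, which was not tested, differed by 0.47 in the opposite direction, and with the mean of both probe sets the difference was -0.03 (adjusted p = 0.897), so the direction for Kcnab2 rests on which probe set is read.

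Kcnab1, the beta subunit that confers rapid inactivation, was lower in oculomotor nucleus, with a log2 difference of -0.49 (SE 0.11, adjusted p = 0.00159), as was Kcna2 (Kv1.2), with -0.31 (SE 0.12, adjusted p = 0.0346). Kcna6 (Kv1.6) differed by 0.28 (95% interval -0.05 to 0.60, adjusted p = 0.154) and Kcnab3 by -0.18 (-0.47 to 0.11, adjusted p = 0.312), and neither passed. Without oculomotor replicate 3 at 30 months Kcna6 differed by 0.39 and passed (adjusted p = 0.0203). Kcna1 and Kcna6 are neighbours on chromosome 4 together with Kcna5. Kcna5, under the filter, differed by -0.02, so the 3 neighbours had log2 differences of -0.02, -1.04 and 0.28. Kcna3 and Kcna2, neighbours on chromosome 2, differed by 0.68 and -0.31.

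Inward rectifiers included the largest difference toward the cord. Of 7 tested, 2 were lower in oculomotor nucleus and 5 did not pass. Kcnj14 encodes Kir2.4, a subunit known from motor neurons of the brainstem. It ran from 201 through 276 to 329 in oculomotor nucleus and from 542 through 617 to 775 in cord, a log2 difference of -1.16 (SE 0.09, adjusted p = 6.23e-09), or 2.23-fold lower. Kcnj3, a subunit of the G protein-gated channels that neurotransmitters open, differed by -0.29 (SE 0.11, adjusted p = 0.0463), and it passed in 14 of 31 fits.

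The astrocyte channel genes did not pass in the fit over all 18 arrays. Kcnj10 (Kir4.1) ran from 166 through 287 to 348 in oculomotor nucleus and from 184 through 330 to 518 in cord, a log2 difference of -0.36 (95% interval -0.69 to -0.04, adjusted p = 0.0602). It passed under 6 alternatives, with differences of -0.50 to -0.36, among them the fits without cord replicate 3 at 30 months (adjusted p = 0.00197), cord replicate 2 at 6 months (0.0321) and oculomotor replicate 2 at 30 months (0.039). Kcnj16 (Kir5.1), its usual partner, differed by -0.07 (-0.21 to 0.08, adjusted p = 0.458), and by -0.11 on another probe set. Kcnj11 (Kir6.2, the pore of the ATP-sensitive channel) differed by 0.01 (-0.23 to 0.24, adjusted p = 0.962). Its other tested probe sets gave 0.20, which passed narrowly (adjusted p = 0.047), and -0.00. Kcnj6 (GIRK2) and Kcnj4 (Kir2.3) differed by 0.11 and 0.10 over all ages, with adjusted p of 0.342 and 0.459.

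Of 4 two-pore-domain channels, 1 passed in each direction. Kcnk2 (TREK-1, opened by stretch, lipids and heat) was higher in oculomotor nucleus, with a range from 271 through 305 to 396 against 153 through 250 to 288 and a log2 difference of 0.49 (SE 0.10, adjusted p = 5.24e-04). At 6, 18 and 30 months the Kcnk2 difference was 0.90, 0.27 and 0.31, and it passed at 6 months only. Kcnk6 (TWIK-2) differed by -0.32 (SE 0.12, adjusted p = 0.0313). Kcnk1 (TWIK-1) at 0.20 (95% interval 0.02 to 0.39, adjusted p = 0.0604) and Kcnk3 (TASK-1, an acid-sensitive leak channel) at -0.16 (-0.36 to 0.05, adjusted p = 0.205) did not pass, although Kcnk1 did under 10 alternatives with differences of 0.20 to 0.29. Among the EAG family, Kcnh2 (the ERG channel) differed by -0.25 (SE 0.09, adjusted p = 0.0305), while Kcnh1 at 0.08 (adjusted p = 0.468) and Kcnh3 at 0.00 (adjusted p = 0.985) did not pass. Neither the sodium-activated Kcnt1, at 0.13 (-0.10 to 0.36), nor Kcnmb4, the neuronal beta subunit of the calcium-activated channel, at -0.09 (-0.30 to 0.12), passed.

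Several calls near the threshold hung on single arrays. Leaving out any 1 of 13 arrays ended that of Kcnip2, any 1 of 10 that of Kcnj3, any 1 of 9 that of Kcna2, any 1 of 8 that of Kcnk6 and any 1 of 6 that of Kcnh2, with differences then of 0.19 to 0.30, -0.29 to -0.22, -0.30 to -0.23, -0.31 to -0.27 and -0.23 to -0.21. The other calls held with each single array left out.

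**Figure D2:**
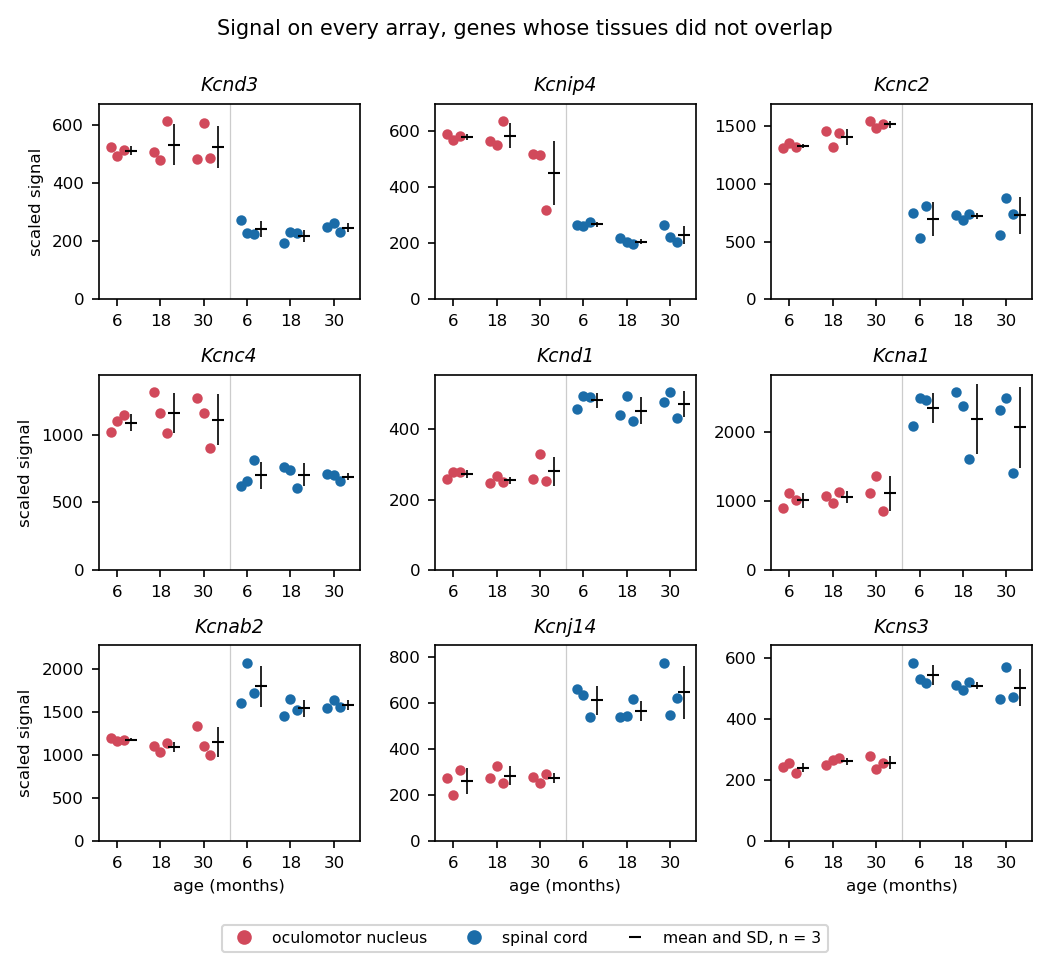
Scaled signal on every array for the 9 genes whose tissues did not overlap, by age in months. Points are single arrays (red, oculomotor nucleus; blue, spinal cord) and black marks are the mean and SD of 3 arrays. In each panel the tissues stay on their own sides at all 3 ages, which follows from how the genes were chosen. For Kcnip4 the lowest oculomotor array, 318 at 30 months, lies closest to the cord arrays.

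The tissues were then compared at each age (3 arrays against 3). In the youngest animals 12 of the 32 genes passed, against 26.1% of all probe sets. The numbers were 10 at 18 months, against 26.2%, and 11 at 30 months, against 21%. The 9 genes without overlap over all ages passed at all 3 ages, Kcnc1 passed at 2 and Kcnh2, Kcnj6, Kcnk2 and Kcnk6 at 1. Groups of 3 did not overlap for 17, 15 and 16 of the 32 genes, against 40.7%, 44.9% and 33.5% of all probe sets. For Kcnip4 the log2 differences at 6, 18 and 30 months were 1.11, 1.5 and 0.94, for Kcnd3 1.09, 1.29 and 1.08, and for Kcnc2 0.95, 0.96 and 1.08. For Kcns3 they were -1.18, -0.96 and -0.96, for Kcnj14 -1.24, -1.0 and -1.23, for Kcna1 -1.22, -1.02 and -0.87, and for Kcnd1 -0.82, -0.83 and -0.76. The sign was the same at all 3 ages for 24 of the 32 genes. Kcnj6 was an exception that passed at an age: its differences were -0.23, 0.10 and 0.45, and the last passed (adjusted p = 0.0428).

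The cell makeup of the tissues differed in the markers measured. The summed signal of the 4 dopamine neuron markers (Th, Slc6a3, Ddc and Slc18a2) was 6761 to 8174 in oculomotor nucleus and 731 to 1072 in cord, and all 4 were higher. Of the 5 cholinergic motor neuron markers, 4 were tested (Chat, Slc18a3, Slc5a7 and Prph) and all 4 were lower in oculomotor nucleus, with sums of 1132 to 1516 against 3148 to 4151. The fifth, Isl1, was at the floor on 7 oculomotor and 5 cord arrays. Hoxa5, a gene of spinal position, was at the floor on 8 of 9 oculomotor arrays and on no cord array. Against cord, the oculomotor samples thus held more of the midbrain dopamine transcripts and less of the motor neuron transcripts.

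Most markers of GABA and of glutamate neurons tested were also higher in oculomotor nucleus. Gad1 and Gad2, which make GABA, differed by 1.14 and 2.02, and Slc17a6 and Slc17a7, which load glutamate into vesicles, by 0.61 and 2.53, each past the test. Slc32a1, also on the GABA and glycine list, differed by 0.29 and did not pass (adjusted p = 0.0659), and Slc6a5 was too dim for the test. The summed signals were 5135 to 6781 against 2812 to 4342 for the 4 GABA and glycine markers and 3627 to 4934 against 2135 to 2567 for the 2 glutamate markers.

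Kcnj14, Kcns3, Kcna1, Kcnd1 and, on its tested probe set, Kcnab2 differed in the direction of the motor neuron markers. Kcnd3, Kcnip4, Kcnc2 and Kcnc4 differed in that of the dopamine, GABA and glutamate markers. The cord direction was not particular to motor neurons: 3 of 4 endothelial and mural markers and the Schwann cell marker Pmp22 (-1.41) were also lower in oculomotor nucleus. Nor was the oculomotor direction particular to dopamine, GABA and glutamate neurons. Of 3 choroid plexus markers tested, Ttr (1.41) and Folr1 (0.55) were higher there and Enpp2 (-0.59) was lower. The astrocyte marker Slc1a3 (1.18) was also higher. General neuron markers gave no common direction, with 4 of 7 higher and 2 lower in oculomotor nucleus, and sums of 35536 to 41572 against 35470 to 48675. Of the astrocyte markers 1 of 7 was higher and 5 were lower, of the oligodendrocyte markers 4 of 6 were lower, and all 5 microglia and all 5 meningeal markers tested were lower. The part of these cell types in the channel differences was not tested. Skeletal muscle markers summed to 4002 to 9936 in cord and 3605 to 4434 in oculomotor nucleus. Much of these sums came from Myh1 and Pvalb, with means of 2180 and 1212 in oculomotor nucleus and 2513 and 1172 in cord. Acta1 (-1.14), Ckm (-1.18), Tnnc2 (-2.21) and Myh1 (-0.20) were lower in oculomotor nucleus, and Pvalb (0.05) did not pass. With the 3 most muscle-rich cord arrays left out 15 genes passed, and with the 2 oculomotor arrays highest in Ttr, a choroid plexus transcript, left out 16 did.

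A list of 39 genes that act with potassium channels (auxiliary and scaffold proteins, axonal adhesion molecules, ion pumps and potassium transporters) was read beside the members. Of 28 tested, 9 passed as higher and 7 as lower in oculomotor nucleus. Over all probe sets 47.2% passed, 23.6% in each direction, so a count of this kind was common on the array. The median difference was 0.02 log2 against 0.01 for all probe sets. Dpp6, which joins Kv4 channels to speed their gating, was higher by 0.57 (adjusted p = 1.32e-06). Among axonal scaffold and adhesion genes, Cntnap1 was higher by 0.71 (adjusted p = 3.93e-05), Sptbn4 by 0.62 (adjusted p = 1.86e-06) and Cntnap2 by 0.25 (adjusted p = 0.0418). Cntn2, which binds Cntnap2 beside the node, differed by 0.05, Ank3 by 0.02, Epb41l3 by 0.05, Cntn1 by 0.03 and Dlg1 by -0.12, and none of these passed. Regulators of the sodium pump diverged: Fxyd6 was higher by 1.90 (adjusted p = 6.08e-12) and Fxyd7 differed by -1.21 (adjusted p = 2.16e-08). The cotransporter Slc12a2 differed by -0.43, dystroglycan Dag1 by -0.44 and the glial gap junction gene Gjb6 by -0.56, each past the test, and no gene of the list passed in any age comparison.

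The other comparisons asked whether the channels change with age within a tissue. None of the 32 genes passed limma's test in any of the age comparisons, 3 per tissue, or in the 2 tests of whether a change differed between the tissues. The background was also low. Of all probe sets, 0% passed at 18 against 6 months, 0.211% at 30 against 6 and 0.0105% at 30 against 18 in oculomotor nucleus, and 0.728%, 0.221% and 0.0105% in cord. No probe set passed in either test of a difference between the tissues in the change (0%). With an unadjusted p under 0.05 there were 0, 2 and 2 channel genes in these comparisons of the oculomotor nucleus, against 3.39%, 8.12% and 4.71% of all probe sets, and 6, 6 and 1 in cord, against 10.3%, 10.7% and 2.14%. In the tests of a difference in change there were 1 and 3, against 5.07% and 5.47%. Arrays of the ages compared did not overlap for 3, 4 and 5 channel genes in oculomotor nucleus, against 14.5%, 13.9% and 8.81% of all probe sets, and for 4, 6 and 2 in cord, against 13.6%, 13.1% and 6.46%. The unadjusted 95% interval of an age change reached 0.36 log2 to either side at the median. That is not the limit of the adjusted test, which estimates as far from 0 as -0.87 did not pass.

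**Figure D3:**
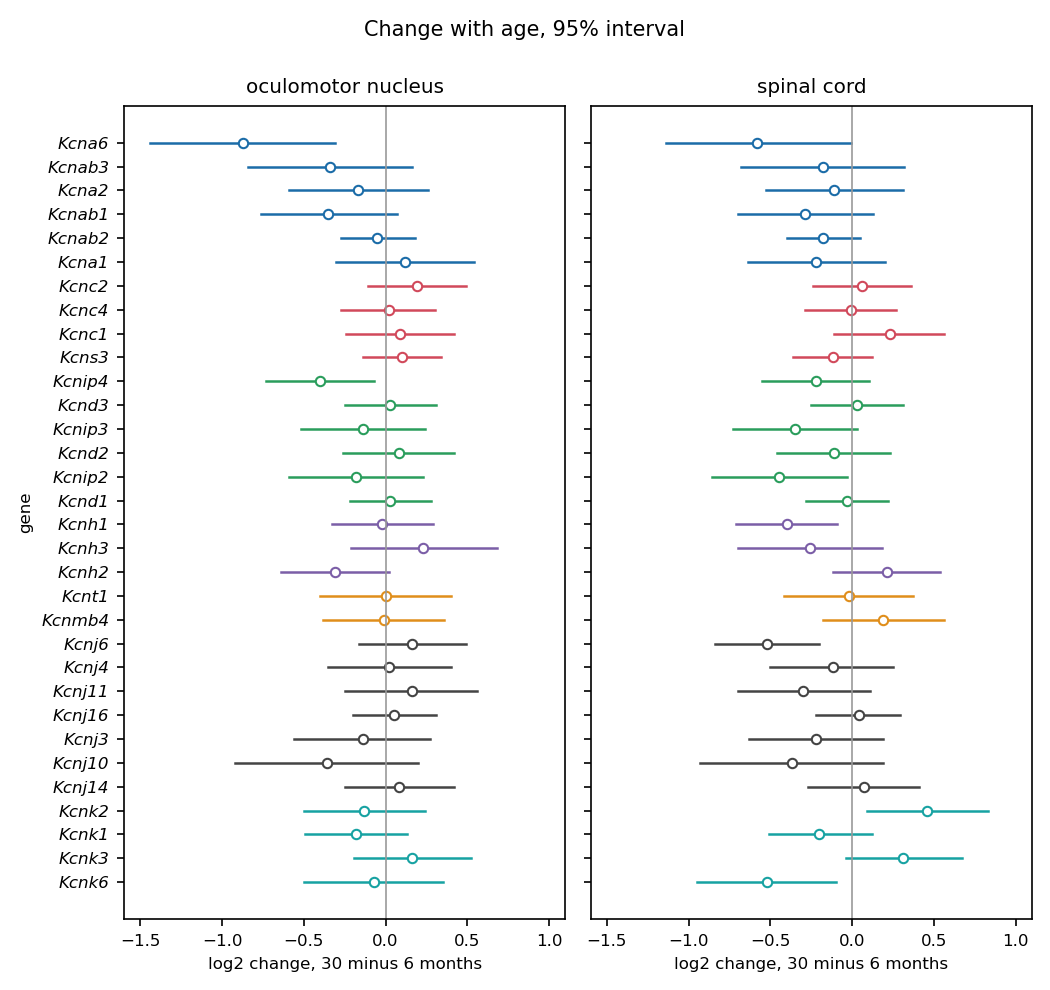
Change from 6 to 30 months in log2 signal for the 32 genes tested, in oculomotor nucleus (left) and spinal cord (right), 3 arrays against 3. Points are estimates, bars are 95% intervals, and colours are the roles of the plot of tissue differences. No gene passed the adjusted p of 0.05, and Kcna6 has the lowest estimate in each tissue, -0.87 and -0.58.

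Kcna6 had the smallest p of the members in oculomotor nucleus. Its oculomotor arrays read 576, 592 and 476 in the youngest group, 538, 468 and 482 in the middle group and 449, 320 and 184 in the oldest, so every 30-month array was under every younger array. The change from 6 to 30 months was -0.87 log2 (95% interval -1.44 to -0.31, unadjusted p = 0.00427, adjusted p = 0.369). The lowest array, replicate 3 at 30 months, set much of the size, and without it the change was -0.53. In cord the 6-month arrays read 496, 462 and 471, the 18-month arrays 298, 328 and 270, and the 30-month arrays 464, 361 and 194. The cord change was -0.68 at 18 months (adjusted p = 0.363) and -0.58 at 30 months (adjusted p = 0.456), and only the 18-month arrays lay wholly under the 6-month arrays. Without replicate 3 at 30 months the second estimate was -0.22.

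For Kcnip4 in oculomotor nucleus the 6-month arrays read 589, 568 and 583, the 18-month arrays 566, 550 and 635, and the 30-month arrays 520, 514 and 318. The change from 6 to 30 months was -0.40 (95% interval -0.73 to -0.07, adjusted p = 0.505), and -0.16 without the array at 318. Kcnc2 lay the other way, with 1310, 1348 and 1316 at 6 months and 1537, 1479 and 1519 at 30 months, which did not overlap, although its change of 0.19 did not pass (adjusted p = 0.771). Its other tested probe sets had estimates of -0.31 (adjusted p = 0.758) and -0.25 (adjusted p = 0.85), and the first of these had means of 488.5 at 6 months and 395.4 at 30 months without overlap between the arrays, so the direction for Kcnc2 depends on the probe set.

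In cord, Kcnj6 had the smallest p. The youngest cord arrays read 283, 319 and 357, those at 18 months 217, 231 and 294, and the oldest 239, 205 and 222. The change from 6 to 30 months was -0.52 (95% interval -0.84 to -0.20, unadjusted p = 0.00313, adjusted p = 0.183). In oculomotor nucleus Kcnj6 differed by 0.16 over the same ages (adjusted p = 0.824), and the change differed between the tissues by 0.69 (95% interval 0.23 to 1.14, unadjusted p = 0.00528, adjusted p = 0.748). The difference in change was thus not past the test.

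For Kcnk2 in cord the 6-month arrays read 181, 223 and 153, the 18-month arrays 288, 189 and 280, and the 30-month arrays 252, 250 and 256. The 30-month change was 0.46 (adjusted p = 0.337), the only positive estimate at an unadjusted p under 0.05 among the members in that comparison. Without replicate 3 at 6 months it was 0.33. The change of Kcnk2 in oculomotor nucleus minus that in cord was -0.63 from 6 to 18 months and -0.59 from 6 to 30 months. Neither passed the adjusted test. Kcnh1, an EAG channel, read 224, 200 and 223 at 6 months and 158, 163 and 169 at 30 months in cord, with no overlap, a change of -0.40 (adjusted p = 0.321). In the same comparison the estimates were -0.52 for Kcnk6 and -0.45 for Kcnip2, with adjusted p of 0.35 and 0.416. The Kcnip2 estimate hung on the 6-month arrays, which read 156, 269 and 298: it was -0.73 without the first and -0.27 without the third.

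**Figure D4:**
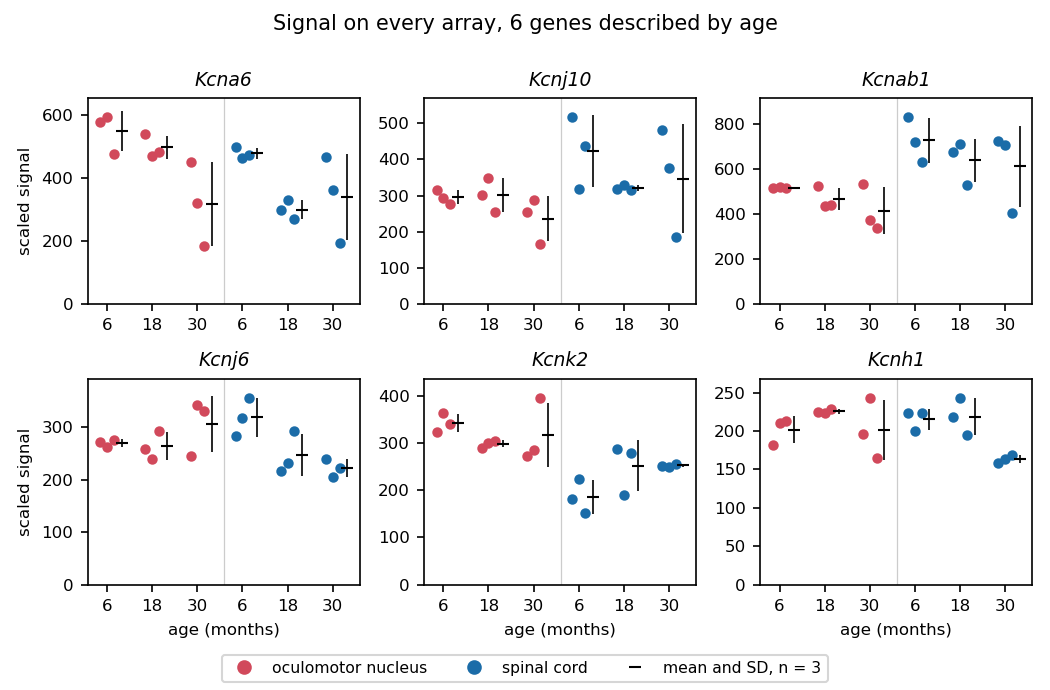
Scaled signal on every array for 6 genes described by age, in months. Points are single arrays (red, oculomotor nucleus; blue, spinal cord) and black marks are the mean and SD of 3 arrays. Kcna6, Kcnj10 and Kcnab1 have their lowest 30-month value on replicate 3 in both tissues, and cord Kcnh1 is lower at 30 months than at 6 months on every array.

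Most estimates in cord were negative. At 18 against 6 months 23 of 32 genes were lower, with a median of -0.14 log2 against -0.00 for all probe sets, and at 30 against 6 months 23 were lower with a median of -0.15 against 0.00. Both comparisons share the 6-month arrays. Without replicate 3 at 30 months the second median was -0.03, and without replicate 1 at 18 months the first was -0.09. General neuron markers summed in cord to between 38522 and 48675 in the youngest group, between 35470 and 42715 in the middle group and between 36091 and 41179 in the oldest, and 6 of 7 had lower estimates at each older age, none past the test. All 5 microglia markers tested had higher estimates in cord at both older ages, with medians of 0.51 at 18 months and 0.42 at 30 months, and P2ry12 passed at 18 months (0.63, adjusted p = 0.0462). Skeletal muscle markers in cord had medians of -0.54 and -0.86, with none past the test. In oculomotor nucleus all 5 meningeal markers had lower estimates at 30 than at 6 months, with a list median of -1.05, and 3 of them passed. The part of these cell types in the channel estimates was not tested.

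Replicate 3 at 30 months read low for many members. In oculomotor nucleus it was the lowest of the 9 arrays for 15 of the 32 genes (46.9%), against 21% of all probe sets, and in cord for 8 (25%), against 15%. In cord, replicate 1 at 18 months was the lowest array for 7 genes (21.9%), against 7.01%, and replicate 1 at 30 months for 5 (15.6%), against 8.73%. Kcna1, Kcna6, Kcnab1, Kcnab3, Kcnj10 and Kcnk6 were lowest on replicate 3 at 30 months in both tissues. The 3' to 5' signal ratio of the control transcripts, a measure of RNA integrity and labelling, was read for replicate 3 at 30 months. For beta-actin it was 1.54 on the oculomotor array, the highest of all arrays, and 1.4 on the cord array. For hexokinase it was 2.19 on the cord array, also the highest, and 1.91 on the oculomotor array. For GAPDH it was 1.09 on the oculomotor and 1.08 on the cord array, within a range of 0.988 to 1.3 over all arrays. The part of this ratio in the low readings was not tested. The Kcnab3 estimate in oculomotor nucleus from 6 to 30 months was -0.34 with oculomotor replicate 3 at 30 months and 0.04 without it.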

How the data were processed

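The arrays were Affymetrix RA230 chips. Per the labels and the submitters' design text, the authors scanned them and summarised the probes with MAS5. The deposited intensity values are 1 linear signal per probe set and array, for 15923 probe sets, already scaled to a common trimmed mean (2% at each end, 500.083 to 500.101). Medians ran from 252 to 275. The design text mentions 4 replicates per group, but groups here follow the labels, which give 3. Detection calls were not used here.

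Signals were scaled to 1 trimmed mean, raised to a floor at the 20th percentile (66.4, reached by 18.0% to 21.0% of probe sets per array), and put on the log2 scale. The 57 controls were removed, and probe sets with a mean log2 signal over the 40th percentile, 7.459, were kept (9482). limma 3.58.1 in R 4.3.3 fitted 1 mean for each of 6 groups over 18 arrays, with eBayes and its mean-variance trend (12 residual degrees of freedom, 18.8 with the prior). All 12 contrasts were tested 2-sided, with Benjamini-Hochberg adjustment over the 9482 probe sets. Differences in log2 are between means of log2 signals. The fit was tested on simulated data. Python 3.11.15 with pandas 2.3.3 was used for the tables. Genes were named with the platform annotation, updated to RefSeq symbols.

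The members, the role lists, the partner list and the markers were chosen with earlier results of these data known. Genes were picked for naming if they had no overlap between the tissues, were among up to 3 per role by smallest p, or were among the 5 with the smallest p in an age comparison. The age estimates of the genes picked by age are not all given, and for some age comparisons none is given. Kcnc2 was described by age without being picked by any age comparison. Some tested members, such as Kcnd2 and Kcnip3, were named outside these rules. Astrocyte, choroid plexus and axonal genes were added for their known roles. Partner genes were picked from their list, past the test and not, and not every one that passed is named. Replicate numbers are not said to pair samples, and the values do not settle it. Same-numbered samples of the tissues at 1 age correlated from -0.06 to 0.50 (median 0.04), with 3 of 9 pairs over 0.1. Differently numbered samples correlated from -0.4 to 0.29 (median -0.01), with 1 of 18 pairs over 0.1. Pairing is thus not excluded, and the main fit did not use it. Alternatives changed the scaling, floor, filter, probe set rule, trend, block and arrays used.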

Additional observations from a re-analysis of the deposited data

How the results depend on the processing

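Of the 19 genes that passed between the tissues over all ages, 12 passed under each alternative in which they were tested (Kcna1, Kcnab1, Kcnc1, Kcnc2, Kcnc4, Kcnd1, Kcnd2, Kcnd3, Kcnip4, Kcnj14, Kcnk2 and Kcns3), and Kcna2, Kcnab2, Kcnh2, Kcnip2, Kcnip3, Kcnj3 and Kcnk6 lost the call under at least 1. A filter at the 60th percentile left 12 genes to test, of which 9 passed over all ages, 6 at 6 months and 5 at 30 months, since fewer genes were tested. Leaving out 1 array at a time gave between 15 and 19 genes over all ages. At the single ages the ranges were 10 to 12 (6 months), 9 to 11 (18 months) and 9 to 13 (30 months), with 0 to 0 in each age comparison and each test of a difference in change. Some differences reversed in sign. Kcnh3 moved from 0.00 to -0.21 without the 3 muscle-rich cord arrays and to -0.04 without the 2 Ttr-rich oculomotor arrays. With 1 array left out Kcnh3 lay between -0.09 and 0.07, and Kcnj11 moved from 0.01 to between -0.07 and 0.07. Kcnab3 in oculomotor nucleus at 30 against 6 months lay between -0.56 and 0.04 with 1 array left out, and reversed from -0.34 to 0.04 without replicate 3 at 30 months. Kcnc2 over the same ages reversed from 0.19 to -0.08 with the mean of its probe sets. The Kcnab3 value was also 0.04 without the 4 arrays that an earlier account found apart, an alternative chosen after seeing the data, under which the cord median at 30 against 6 months was -0.08. The cause was not tested.

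Among genes that did not pass over all ages, Kcnk1 passed under 10 alternatives, Kcnj10 under 6, Kcna6 under 3 and Kcnab3 and Kcnj16 under 1 each. With the replicate block, 21 genes passed over all ages, now with Kcna6 (0.28, adjusted p = 0.00503) and Kcnj10 (-0.36, adjusted p = 0.00584), 14 at 6 months, 13 at 18 months and 14 at 30 months, and 0 in each age comparison. Whether the numbers pair the samples was not settled.

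The number of arrays limits precision, and levels near the floor are compressed.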

Other observations

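Among the channel genes too dim for the test, Kcna4 (Kv1.4, an axonal A-type channel) was the only one whose tissues did not overlap. It ran from 134 through 159 to 191 in oculomotor nucleus and from 65.2 through 76.9 to 108 in cord, where 1 array was at the floor. With no filter on signal its log2 difference was 1.00 (adjusted p = 1.11e-06), opposite to Kcna1 in the same subfamily. Kcna3 (Kv1.3, known from lymphocytes and microglia as well as axons) differed by 0.68 (adjusted p = 0.00081) and the silent subunit Kcnv1 by 0.74 (adjusted p = 2.18e-05) in that fit, both toward the oculomotor nucleus, with cord arrays at or near the floor. The acid-sensitive leak channel Kcnk9 (TASK-3) differed by 0.43 (adjusted p = 0.0397) and Kcnk12 by -0.36 (adjusted p = 0.0486).

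Channels known from choroid plexus and blood vessels were dim in both tissues. Kcnj13 (Kir7.1) ran from 57.8 through 69.0 to 93.1 in oculomotor nucleus and from 51.3 through 86.8 to 124.8 in cord. Kcne2 ran from 37.2 through 74.1 to 132.3 and from 52.6 through 101.0 to 132.6. Kcnj8 (Kir6.1, the pore of the vascular ATP-sensitive channel) ran from 90.4 through 157.2 to 180.4 and from 131.9 through 178.1 to 215.6. The tissues overlapped for each.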
